A study of Mus musculus with 15 samples.

Results

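The genes described here are 7 glucocorticoid-responsive genes, Fkbp5, Sgk1, Tsc22d3, Zbtb16, Errfi1, Nfkbia and Cdkn1a, of 32285 genes listed in each library. They were named as a list, without a threshold, and chosen by earlier results of the same libraries, so their own levels and group differences may have led to the choice. Each p-value below is therefore a description and not independent support. Nuclei came from micropunches of the dorsal hippocampal formation of 15 female C57BL6/J mice, with 1 single-nucleus RNA-seq library per mouse. NP mice (n = 6) were nulliparous virgins of matched age. ControlPP mice (n = 4) had mated, given birth and reared a litter to weaning. StressPP mice (n = 5) had the same reproductive experience, with limited nesting material and daily separation from the pups during later lactation. All mice were wild type, punches of a mouse were pooled, and the labels give neither the age nor the time of day at collection. The labels place the mice in 3 batches, and batch 1 holds 2 NP mice, 1 StressPP mouse and no ControlPP mouse. The methods of the study place every group in every batch, which these labels do not show, so the within-batch values below rest on the labels alone.

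Glucocorticoids, in mice mainly corticosterone, pass into cells and bind the glucocorticoid receptor Nr3c1 and the mineralocorticoid receptor Nr3c2. The bound receptors move to the nucleus, where they raise the transcription of target genes from response elements built of paired sites. In the hippocampus both receptors are abundant, and the targets differ between neurons, glia and vessels. Fkbp5 is a co-chaperone that lowers the affinity of the receptor for its hormone and so feeds back on the signal. Zbtb16 (PLZF) is a zinc finger transcriptional repressor. Tsc22d3 (GILZ) carries anti-inflammatory effects of the hormone, and Nfkbia holds NF-kB in the cytoplasm. Sgk1 is a kinase that regulates ion channels and transporters, Errfi1 (MIG6) inhibits the EGF receptor, and Cdkn1a (p21) inhibits cyclin-dependent kinases.

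In GRCm38, Fkbp5 (ENSMUSG00000024222) lies at chr17:28399094-28517527 on the minus strand and Zbtb16 (ENSMUSG00000066687) at chr9:48654297-48836222 on the minus strand. Sgk1 (ENSMUSG00000019970) lies at chr10:21882184-21999903 on the plus strand, and Tsc22d3 (ENSMUSG00000031431) at chrX:140539528-140600659 on the minus strand. Errfi1 (ENSMUSG00000028967) lies at chr4:150853919-150868892 on the plus strand, Nfkbia (ENSMUSG00000021025) at chr12:55489410-55492647 on the minus strand, and Cdkn1a (ENSMUSG00000023067) at chr17:29090976-29100727 on the plus strand. All 7 are annotated as protein coding.

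RefSeq promoter windows (GRCm38.p6, 250 bases before to 50 after a transcription start) were held for 6 of the 7 genes, with no entry for Zbtb16. The full response element, AGAACA and TGTTCT with any 3 bases between them, is a palindrome of the single site AGAACA, and both were searched on both strands. It was found in 3 of 32851 windows of the same length over all genes, or 0.00913%, and 1 of those 3 is a window of Sgk1. The single site, which the full element contains, was in 19.0% of all windows. It was in 3 of 6 windows of Sgk1 and 1 of 3 windows of Tsc22d3, and in none of the windows of Fkbp5 (1), Errfi1 (2), Nfkbia (1) or Cdkn1a (2). A match describes letters and not binding, and a window without a match covers only these 300 bases. The Sgk1 window at chr10:21993640-21993939 on the plus strand is shown because it holds the only full element among the members, with the element in capitals at chr10:21993701-21993715, starting 189 bases upstream of the annotated start.
Sgk1: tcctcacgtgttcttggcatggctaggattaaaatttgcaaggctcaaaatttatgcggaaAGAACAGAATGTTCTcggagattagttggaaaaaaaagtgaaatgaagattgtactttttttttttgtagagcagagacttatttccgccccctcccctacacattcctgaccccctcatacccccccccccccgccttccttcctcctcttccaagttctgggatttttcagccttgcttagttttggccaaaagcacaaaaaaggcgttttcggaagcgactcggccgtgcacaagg

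The 15 libraries held 134019 barcodes, from 5789 to 12738 per mouse, with total counts of 40602582 to 96211264 UMIs (unique molecular identifiers, each standing for 1 captured transcript) per library. After filtering, 123901 nuclei were kept and 120053 of them fell into 24 classes named from marker genes. A class name stands for nuclei that resemble that cell type by those markers. The defining markers of the labelled tissue were present: each dentate granule cluster had at least 7 of its 8 markers detected, and the CA1 pyramidal, CA3 pyramidal, oligodendrocyte and astrocyte classes were each found. Thalamic, habenula and striatal-type neurons were also in the punches. Of 131768 distinct barcode sequences, 2211 were in more than 1 library, and no pair of libraries shared more than 47. The unit throughout is CPM, the UMIs of a gene per 1000000 UMIs of that class in that mouse. Introns and exons both contribute to nuclear counts, so levels are compared between classes and mice for 1 gene and never between genes.

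Each member had its own distribution over the 24 classes. Zbtb16 was highest in CA2 pyramidal (560 ± 141 CPM, SD, n = 15), subiculum (543 ± 106, n = 13) and endothelial nuclei (509 ± 307, n = 15). CA1 pyramidal nuclei followed at 442 ± 77.9 CPM and dentate granule nuclei at 426 ± 68.6 CPM. No neighbouring pair in that upper order differed beyond the spread between mice. Oligodendrocytes held 272 ± 126 CPM of Zbtb16, astrocytes 146 ± 52.6 and oligodendrocyte precursors (OPC) 110 ± 52.4. Microglia at 42.7 ± 14.9 CPM, choroid plexus and striatal-type GABAergic nuclei at 18.5 ± 12.6 CPM (n = 8) were the lowest of the named classes.

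Classes differ in depth, so the share of nuclei with a Zbtb16 UMI was taken after each nucleus was thinned to 1000 UMIs. It was 44.7% in subiculum, 39.4% in CA2 pyramidal, 36.8% in endothelial, 34.6% in CA1 pyramidal and 32.2% in dentate granule nuclei. It was 25.5% in interneuron, 22.6% in oligodendrocyte and 13.3% in astrocyte nuclei. In striatal-type nuclei, the lowest class, it was 1.03%, against 7.59% before thinning at a median of 9173 UMIs. Microglia, at 3.47% after thinning with a median of 2055 UMIs, stood closest to that low level among the glia. OPC were at 10.3%. Free RNA makes up a larger part of a shallow nucleus than of a deep one, so the share in striatal-type nuclei sets no limit for the shallower glial classes.

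Fkbp5 had another order. It was highest in macrophages (309 ± 192 CPM, n = 14), vascular leptomeningeal cells (230 ± 84.2) and microglia (227 ± 64.1), which did not differ beyond their spread. Among neurons CA2 pyramidal nuclei stood out at 147 ± 22.6 CPM, above dentate granule nuclei at 112 ± 8.11 CPM. OPC held 52.0 ± 17.3 CPM, oligodendrocytes 44.7 ± 16.1 and astrocytes, the lowest class, 15.7 ± 7.11.

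The remaining members each had a different class with the highest mean. That class stood above the next by more than the spread for Tsc22d3 and Errfi1, and not for Sgk1, Nfkbia or Cdkn1a. Sgk1 was highest in choroid plexus (474 ± 56.7 CPM, n = 13) and striatal-type neurons (379 ± 48.8, n = 8), then CA3 pyramidal nuclei (302 ± 20.2), with astrocytes lowest at 19.0 ± 5.43. Tsc22d3 was highest in oligodendrocytes at 179 ± 20.7 CPM, above every other class by more than the spread, and was 2.38 ± 0.698 CPM in dentate granule nuclei. Errfi1 peaked in vascular leptomeningeal cells (129 ± 47.5 CPM) and oligodendrocytes (63.3 ± 12.9). Nfkbia peaked in endothelial nuclei (69.6 ± 33.2 CPM). Cdkn1a was no higher than 8.76 CPM in any class.

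**Figure D1:**
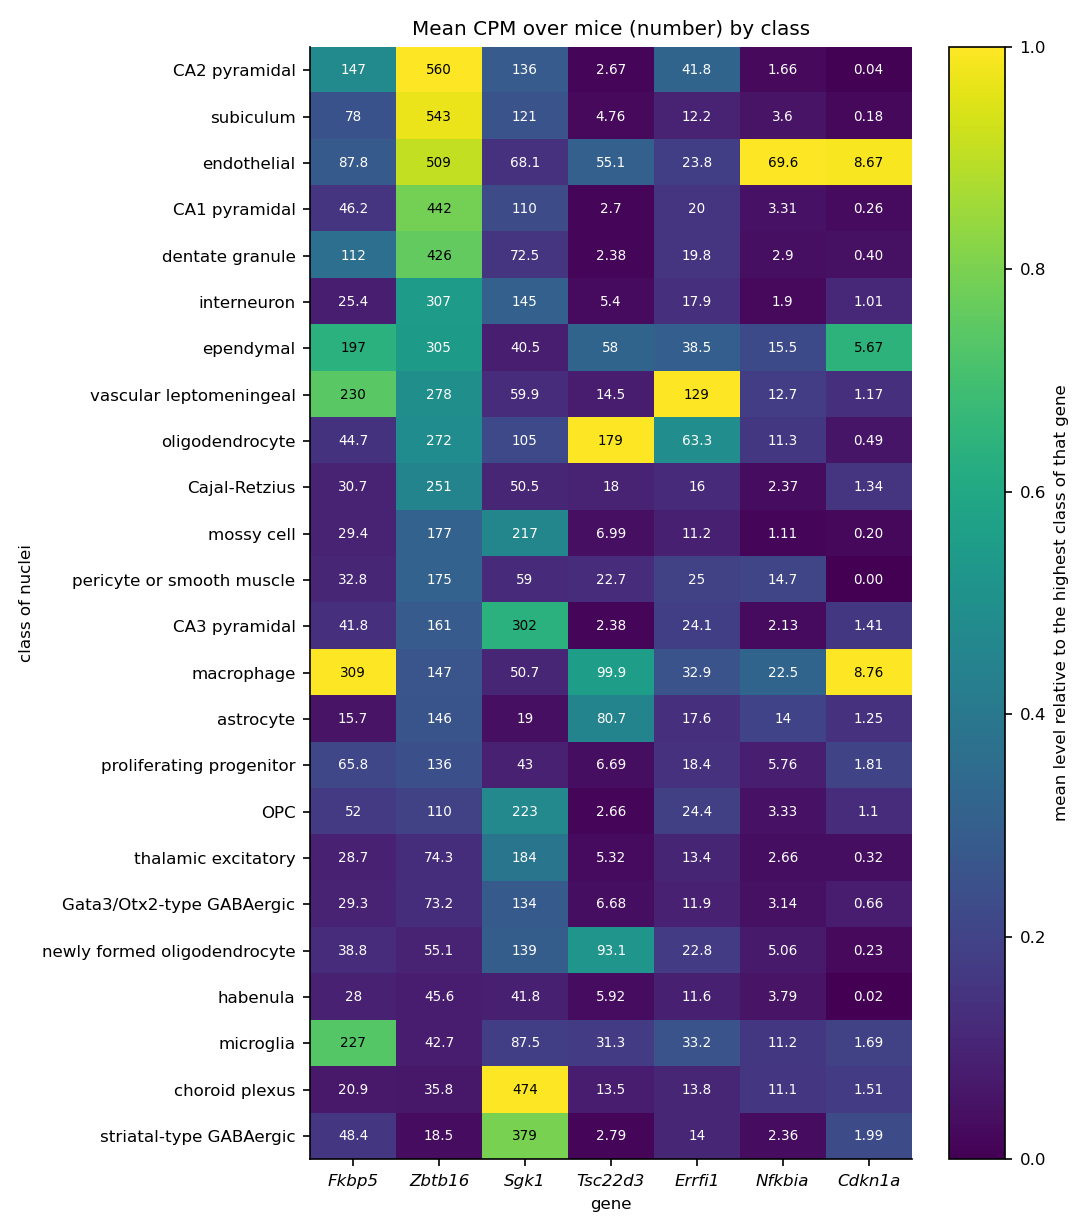
Mean level of each member by class of nuclei. Numbers are CPM averaged over mice (10 or more nuclei each), and the colour gives the level relative to the highest class of that gene, so colours compare classes within a column only. Zbtb16 is spread over hippocampal neurons and glia with 560 CPM in CA2 pyramidal nuclei, while Tsc22d3 is concentrated in oligodendrocytes at 179 CPM.

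Genes outside the lists whose class means were most like those of a member over 22 classes are given as a description only, since all classes come from the same libraries. For Zbtb16 these were Fam171a1 (Pearson r = 0.752), Gda (0.75) and Grasp (0.736). For Fkbp5 they were Gm22146 (0.907), Skil (0.762) and Rnf149 (0.761). Tsc22d3 was most like Lap3 (0.908), Slc25a38 (0.899) and Wdr91 (0.886), and Sgk1 most like Snap91 (0.798), Pcsk2os1 (0.727) and Cacnb4 (0.726). Errfi1 was most like Enpp1 (0.881), Ell (0.785) and Dtwd2 (0.765). Nfkbia was most like Hbb-bs (0.932), Gm15564 (0.923) and Cmss1 (0.915), and Cdkn1a most like Gm19684 (0.868), Nlrc5 (0.865) and Kcnn4 (0.858).

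The receptors that these genes respond to were present in every main class and did not pass the test in any comparison. Nr3c1 averaged 364 ± 47.3 CPM in microglia, 237 ± 25.2 in astrocytes, 234 ± 25.0 in oligodendrocytes, 204 ± 26.5 in OPC and 107 ± 8.57 in dentate granule nuclei. Nr3c2 averaged 1562 ± 136 CPM in CA1 pyramidal, 1415 ± 123 in dentate granule, 724 ± 59.8 in astrocyte and 320 ± 63.8 in oligodendrocyte nuclei. StressPP minus ControlPP for Nr3c1 was 0.16 ± 0.10 (log2, SE) in oligodendrocytes and 0.16 ± 0.13 in OPC. For Nr3c2 it was -0.22 ± 0.20 and -0.12 ± 0.16 in the same classes.

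The comparison of StressPP with ControlPP asks what postpartum stress did to these genes in mice that had all reared a litter. For Zbtb16 and Fkbp5 the estimates were between -1.32 and -0.75 on the log2 scale in the 4 glial classes, and between -0.35 and 0.01 in the dentate granule, CA1 pyramidal, CA3 pyramidal and interneuron classes. Of all members and main classes, Zbtb16 in OPC was the one difference past an adjusted p of 0.05. Counts summed per mouse and class were fitted with edgeR's quasi-likelihood test, with Benjamini-Hochberg adjustment over all genes of the class. In the 8 main classes other than OPC edgeR called 0 genes in this comparison, with 180 to 467 genes at an unadjusted p under 0.05. DESeq2 called 10 genes in oligodendrocytes, 8 in astrocytes and 1 in OPC.

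Zbtb16 in OPC fell from 173 ± 52.9 CPM (SD, n = 4) in ControlPP to 69.3 ± 9.88 CPM (n = 5) in StressPP mice. The ControlPP mice had 132, 134, 181 and 244 CPM, and the StressPP mice had 52.9, 68.7, 71.7, 74.4 and 78.7 CPM. NP mice ranged from 67.1 to 149 CPM with a median of 92.8. Between 51 and 80 UMIs per StressPP mouse and 122 to 228 per ControlPP mouse lie behind these levels. Every StressPP mouse was below every ControlPP mouse, and the NP mice overlapped both groups. The log2 fold change was -1.32 ± 0.21 (SE, 95% interval -1.77 to -0.87), with an adjusted p of 0.0428. It ranked first by p among the 10060 genes tested and was the single gene called, a background of 0.00994%, and 1 of 4 members tested in OPC was called. Within batch 2 the log2 ratio of the group means was -1.58, and within batch 3 it was -1.13.

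That call rests on few mice. Leaving out 1 mouse at a time moved the estimate between -1.43 and -1.11 and the adjusted p between 0.0133 and 0.352, and the call held for 6 of 15 mice left out. It was lost without either of the ControlPP mice 87 (adjusted p = 0.219) and 88 (0.352), without any 1 of the 5 StressPP mice, and without the NP mice 63 or 73. With p-values adjusted over the 9 main classes together, an alternative chosen after seeing the data, the adjusted p was 0.527. The call was also lost when the share of barcodes removed as doublets was doubled, with an estimate of -1.33 and an adjusted p of 0.0532.

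Oligodendrocytes, the myelinating cells, had a negative estimate for Zbtb16 that did not pass the edgeR test. ControlPP mice had 276, 335, 510 and 535 CPM, and StressPP mice had 112, 133, 174, 206 and 239 CPM. NP mice ranged from 130 to 343 CPM with a median of 270. The ControlPP and StressPP mice did not overlap. StressPP minus ControlPP was -1.27 ± 0.28 on the log2 scale, with an adjusted p of 0.755 in edgeR and 0.016 in DESeq2. The log2 ratio was -1.34 within batch 2 and -1.46 within batch 3. Fitted on their own, the 3 oligodendrocyte clusters gave -1.41 ± 0.28, -1.38 ± 0.28 and -1.20 ± 0.24 for Zbtb16.

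In astrocytes, which support synapses and take up glutamate, Zbtb16 was 166, 174, 232 and 251 CPM in ControlPP mice. The StressPP mice had 63.2, 89.3, 89.7, 124 and 161 CPM, and NP mice ranged from 90.4 to 189 CPM with a median of 143. The 2 postpartum groups again did not overlap, and the NP mice lay across both. The log2 fold change was -0.99 ± 0.23, with an adjusted p of 0.976 in edgeR and 0.037 in DESeq2. Its 2 astrocyte clusters gave -1.07 ± 0.21 and -0.90 ± 0.23, and the log2 ratio was -1.11 within batch 2 and -1.21 within batch 3. Microglia had less Zbtb16, with 45.2, 60.8, 61.6 and 64.3 CPM in ControlPP and 26.1, 26.4, 27.8, 37.9 and 46.9 CPM in StressPP mice, which overlapped by 1 mouse of each group. The difference in microglia was -0.82 ± 0.26, with an adjusted p of 0.9995, and the log2 ratio was -0.33 within batch 2 and -1.19 within batch 3.

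The estimates for Fkbp5 were also negative in these classes, and none passed the edgeR test. In oligodendrocytes ControlPP mice had 48.1, 50.1, 71.0 and 83.5 CPM and StressPP mice had 19.9, 28.0, 34.8, 36.6 and 46.8 CPM. NP mice ranged from 32.0 to 54.2 CPM with a median of 40.8, and the 2 postpartum groups did not overlap. The log2 fold change was -0.95 ± 0.22, with an adjusted p of 0.882 in edgeR and 0.0428 in DESeq2. The log2 ratio was -0.80 within batch 2 and -1.12 within batch 3.

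Microglia showed the member's largest amounts among the main classes. The ControlPP mice had 228, 237, 316 and 387 CPM of Fkbp5 and the StressPP mice 132, 176, 180, 196 and 197 CPM, again without overlap, with NP mice from 180 to 296 CPM and a median of 223. The difference in microglia was -0.75 ± 0.17 on the log2 scale. It ranked first by unadjusted p among the 9575 genes tested there, and its adjusted p was 0.9995. The log2 ratio was -0.90 within batch 2 and -0.50 within batch 3. In OPC, where the groups overlapped (50.7 to 92.2 CPM in ControlPP against 28.2 to 57.7 CPM in StressPP), the difference was -0.76 ± 0.22, and in astrocytes it was -0.81 ± 0.32, or -0.54 without the ControlPP mouse 88.

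**Figure D2:**
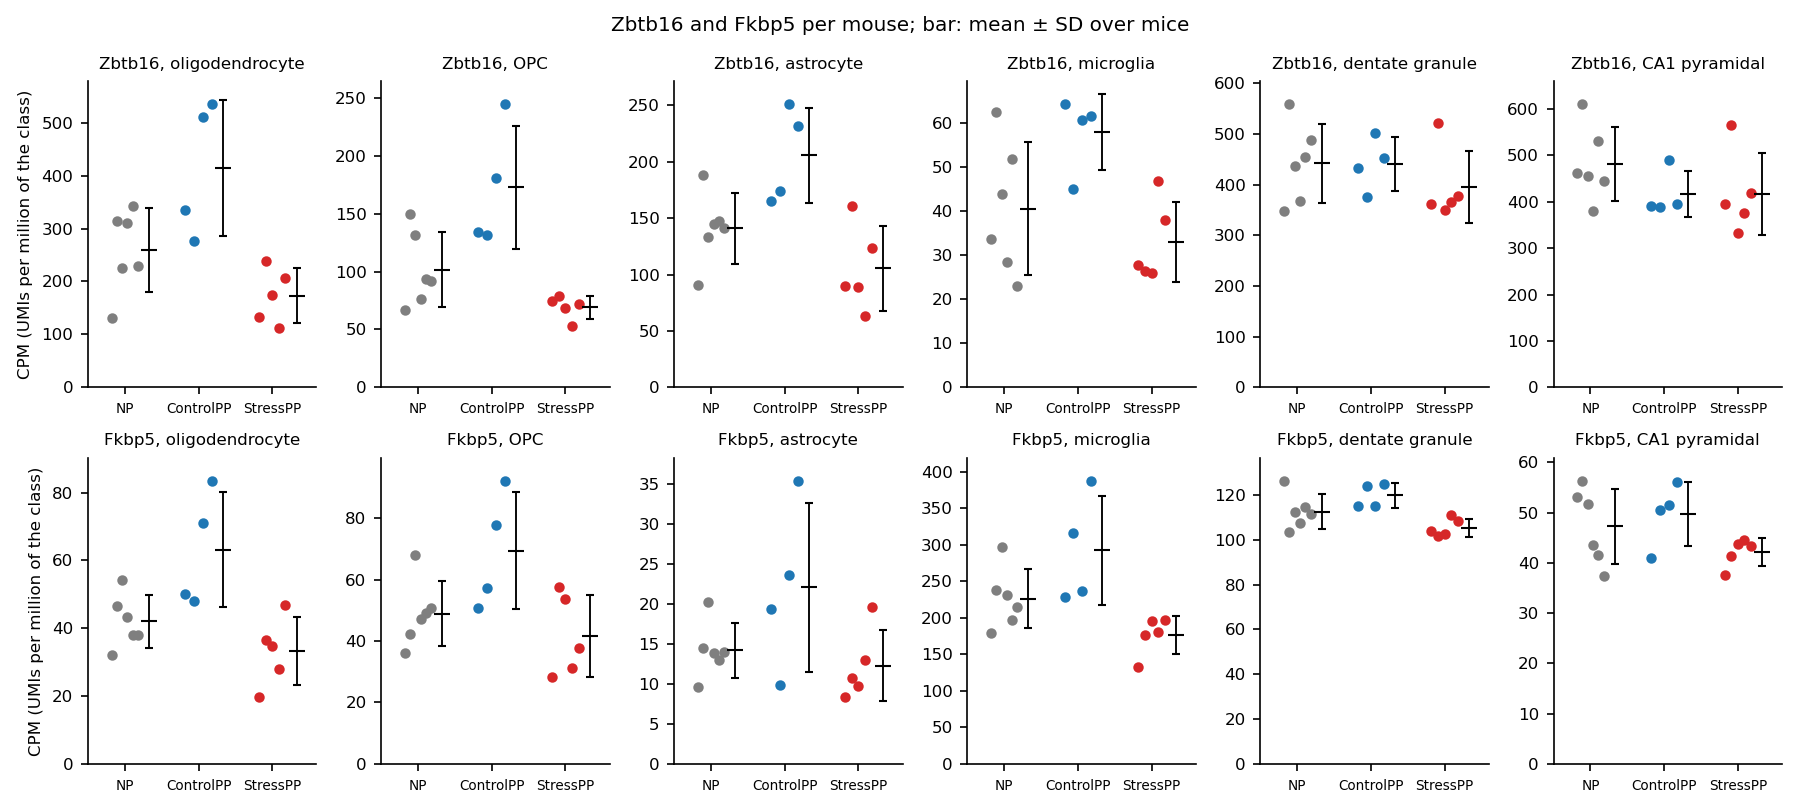
Zbtb16 (top) and Fkbp5 (bottom) in 6 classes, in CPM on linear axes from 0. Each point is a mouse, grey for NP, blue for ControlPP and red for StressPP, and the bar beside each group is the mean ± SD. In OPC all StressPP mice lie at or below 78.7 CPM of Zbtb16 and all ControlPP mice at or above 132 CPM, while in dentate granule and CA1 pyramidal nuclei the groups of Zbtb16 overlap.

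In neurons none of the estimates passed the test. Dentate granule Zbtb16 was 375, 433, 453 and 502 CPM in ControlPP and 350, 361, 366, 376 and 520 CPM in StressPP mice, with NP mice from 348 to 558 CPM. These groups overlapped, and StressPP minus ControlPP was -0.16 ± 0.15 (95% interval -0.49 to 0.16). The highest StressPP value was that of mouse 70, the batch 1 mouse of its group. Without mouse 70 the difference was -0.28 ± 0.14, and without the ControlPP mouse 87 it was -0.08 ± 0.16, the lowest and the highest values on leaving out 1 mouse, and neither passed the test. Its 3 dentate granule clusters, fitted on their own, gave -0.28 ± 0.13, -0.20 ± 0.11 and -0.38 ± 0.25, each further from 0 than the class as a whole. The clusters differed in level and in their share of granule nuclei. The first held 405 ± 44.3 CPM of Zbtb16 in ControlPP and 340 ± 19.9 CPM in StressPP mice, and 8.36% to 83.1% of granule nuclei per ControlPP mouse and 2.33% to 92.8% per StressPP mouse. The next held 498 ± 43.3 and 435 ± 56.7 CPM, with 14.8% to 78.7% and 4.76% to 63.8% of granule nuclei. The third held 429 ± 146 and 343 ± 130 CPM, with 2.13% to 13.0% and 2.43% to 33.8% of granule nuclei. It was shallow, with a median of 1181 UMIs against 7878 and 9783 in the others, and 25.9% of its nuclei came from 1 library. At Leiden resolution 0.5 a cluster with a median of 1335 UMIs was named neuroblast. The part of these shares in the dentate granule values, also where they are subtracted below, was not tested. In CA1 pyramidal nuclei the difference of Zbtb16 was 0.01 ± 0.16, in CA3 pyramidal nuclei -0.19 ± 0.16 and in interneurons -0.24 ± 0.17. Without mouse 70 these were -0.14 ± 0.14, -0.27 ± 0.16 and -0.32 ± 0.18. Without mouse 87 the difference was 0.12 ± 0.17 in CA1 pyramidal nuclei, -0.06 ± 0.16 in CA3 pyramidal nuclei and -0.16 ± 0.19 in interneurons, where it was also -0.16 without the ControlPP mouse 88 and -0.15 without the StressPP mouse 75. Fkbp5 in dentate granule nuclei was 115, 115, 124 and 125 CPM in ControlPP and 101, 103, 104, 108 and 111 CPM in StressPP mice, a non-overlapping difference of -0.18 ± 0.08. The difference of Fkbp5 was -0.24 ± 0.12 in CA1 pyramidal nuclei and -0.10 ± 0.12 in CA3 pyramidal nuclei. On leaving out 1 mouse at a time it lay between -0.33 and -0.18 in CA1 pyramidal nuclei, between -0.17 (without ControlPP mouse 66) and -0.05 (without StressPP mouse 75 or ControlPP mouse 88) in CA3 pyramidal nuclei and between -0.23 and -0.16 in dentate granule nuclei. In interneurons it was -0.35 ± 0.21, with ControlPP mice at 22.2, 29.5, 34.8 and 35.3 CPM and StressPP mice at 16.6, 21.8, 22.1, 27.3 and 32.7 CPM, so the groups overlapped there, and it lay between -0.49 and -0.23 on leaving out 1 mouse.

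The glial and granule cell values can be set beside each other within each mouse, by subtracting the log2 level in dentate granule nuclei. For Zbtb16, StressPP minus ControlPP of that within-mouse value was -1.09 in oligodendrocytes, -1.10 in OPC, -0.84 in astrocytes and -0.65 in microglia. For Fkbp5 it was -0.74, -0.56, -0.54 and -0.52 in the same order. The Zbtb16 value did not overlap between the groups in oligodendrocytes, OPC and astrocytes and overlapped in microglia, while the Fkbp5 value overlapped in the first 3 classes and did not in microglia. Without the StressPP mouse 70, whose dentate granule level was the highest of its group, the Zbtb16 values were -1.11, -1.05, -0.91 and -0.48. This comparison was chosen after the values were seen, and the difference between classes was not tested.

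Counts of members against all genes were as follows. In oligodendrocytes 2 of 6 members tested, Fkbp5 and Zbtb16, had every StressPP mouse below every ControlPP mouse, beside 0.499% of the 13820 genes tested. In astrocytes these were Tsc22d3 and Zbtb16, 2 of 6, beside 0.618% of 12782 genes. In OPC it was Zbtb16, 1 of 4, beside 0.666%, and in microglia Fkbp5, 1 of 5, beside 0.512%. In dentate granule nuclei it was Fkbp5, 1 of 7, beside 0.423%. Since the members were listed with results of this contrast known, nothing is read from these shares.

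Tsc22d3 was set apart between the postpartum groups in astrocytes, without passing the test. The ControlPP mice had 81.1, 93.1, 95.8 and 109 CPM and the StressPP mice 53.6, 53.8, 65.5, 76.0 and 80.4 CPM, with NP mice from 68.1 to 106 CPM and a median of 83.7. The 2 postpartum groups did not overlap. The log2 fold change was -0.57 ± 0.14, with an adjusted p of 0.9999, and the log2 ratio was -0.71 within batch 2 and -0.47 within batch 3. In oligodendrocytes, where Tsc22d3 is highest, the groups overlapped (159 to 216 CPM in ControlPP, 152 to 177 CPM in StressPP) and the difference was -0.18 ± 0.11. In CA1 pyramidal nuclei it held 56 of 28589355 UMIs in ControlPP and 90 of 32235215 in StressPP mice, and ranked 297 of 13595 genes by unadjusted p. In dentate granule nuclei it held 187 of 98423013 and 224 of 104982545 UMIs. Neither class passed the test for Tsc22d3. In OPC, with 0 to 8.02 CPM per mouse, Tsc22d3 was too low to be tested.

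Sgk1 showed no shared direction. StressPP minus ControlPP was -0.61 ± 0.34 in oligodendrocytes, 0.09 ± 0.11 in OPC, -0.07 ± 0.28 in astrocytes, 0.12 ± 0.17 in microglia and 0.13 ± 0.08 in dentate granule nuclei, none past the test. In oligodendrocytes the ControlPP mice had 104, 107, 139 and 169 CPM and the StressPP mice 41.8, 50.0, 85.3, 99.1 and 155 CPM, so the groups overlapped. Sgk1 in OPC had a narrow spread, with 209 to 238 CPM in ControlPP and 201 to 280 CPM in StressPP mice.

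Errfi1 differed by -0.45 ± 0.22 in OPC, 0.05 ± 0.18 in oligodendrocytes, 0.10 ± 0.19 in astrocytes and -0.02 ± 0.19 in microglia. By unadjusted p it ranked 367 of 10060 genes in OPC, 231 of 12575 in interneurons and 410 of 13595 in CA1 pyramidal nuclei. Interneurons held 253 of 12154749 UMIs in ControlPP and 248 of 15981553 in StressPP mice, and CA1 pyramidal nuclei 646 of 28589355 and 573 of 32235215. In dentate granule and CA3 pyramidal nuclei it ranked 5648 of 16789 and 6829 of 13345. Nfkbia differed by -0.10 ± 0.26 in oligodendrocytes and 0.07 ± 0.17 in astrocytes. Neither gene passed the test in a main class. In microglia Nfkbia did not pass the filter on low counts, with 3 to 9 UMIs per ControlPP mouse and 7 to 15 per StressPP mouse. Its levels there were 3.77 to 11.7 CPM in ControlPP, 7.27 to 11.2 CPM in NP and 12.1 to 23.0 CPM in StressPP mice, with no test.

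Cdkn1a passed the filter in 3 of 9 main classes, dentate granule, CA3 pyramidal and whole punch. In CA3 pyramidal nuclei it was at 0.193 to 1.28 CPM in ControlPP and 0.31 to 2.59 CPM in StressPP mice, a difference of 1.02 ± 0.48 that did not pass the test and rests on 1 to 16 UMIs per mouse. Microglia of the 4 ControlPP mice held 0 UMIs of Cdkn1a, which allows up to 1.00 CPM over the group by counting error, against 11 UMIs in StressPP mice. Of the other members, Fkbp5, Sgk1, Zbtb16 and Errfi1 passed the filter in all 9 main classes, Tsc22d3 in 8 and Nfkbia in 6.

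**Figure D3:**
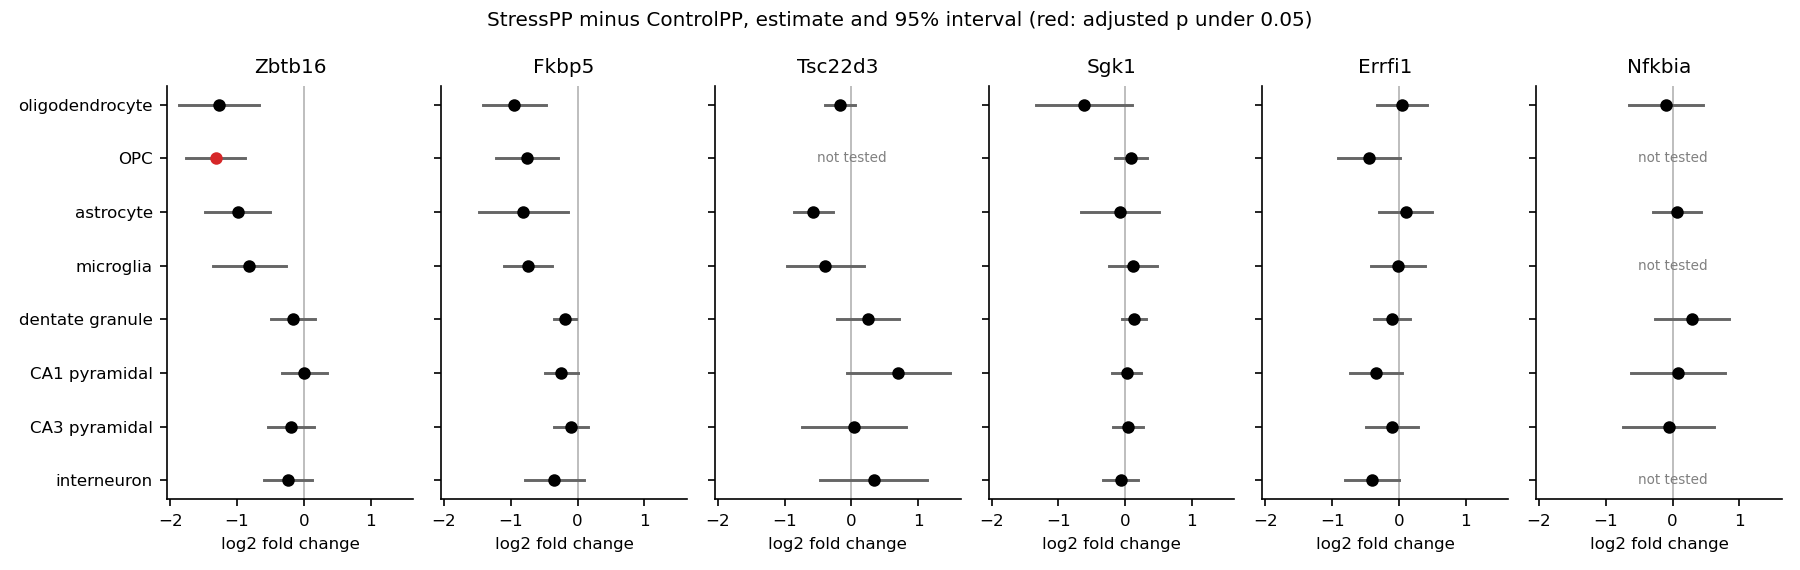
StressPP minus ControlPP of 6 members in 8 classes, as log2 fold change (point) with its 95% interval (line). Zbtb16 in OPC, at -1.32, is the red point with an adjusted p under 0.05, the other tested values are black, and genes below the filter on low counts are marked as not tested.

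Outside the main classes, Zbtb16 in endothelial nuclei was 597, 695, 815 and 1357 CPM in ControlPP and 189, 226, 227, 275 and 360 CPM in StressPP mice, a difference of -1.71 ± 0.31 with an adjusted p of 0.125 in edgeR. The groups did not overlap, at 33 to 180 nuclei per mouse, for 1 of 5 members beside 0.966% of the 5174 genes tested in that class. In vascular leptomeningeal cells, fibroblast-like cells of the brain's coverings, Fkbp5 was 277, 321, 376 and 396 CPM in ControlPP and 151, 153, 156, 171 and 187 CPM in StressPP mice. That difference was -1.07 ± 0.19, with an adjusted p of 0.105. Macrophages, with 11 to 36 nuclei per mouse used, gave -1.72 ± 0.38 for Fkbp5 with an adjusted p of 0.457. Over all classes tested other than the whole punch, which come from the same mice, the estimate was negative in 19 of 22 classes for Zbtb16 and in 17 of 19 for Fkbp5.

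The comparison of ControlPP with NP asks what reproductive experience without added stress left behind, and it shares the ControlPP mice with the comparison above. No member passed the test in a main class. EdgeR called 1 gene of 21165, not a member, in the whole punch (0.00472%, 20 genes with DESeq2) and 0 genes in the other 8 main classes, with 226 to 499 genes each at an unadjusted p under 0.05. DESeq2 called 1 gene in CA3 pyramidal nuclei and none in the other 7. At an unadjusted p under 0.05, Fkbp5 and Zbtb16 were higher in ControlPP than in NP mice in oligodendrocytes (2 of 6 members, beside 0.716% of all genes), OPC (2 of 4, beside 1.19%), astrocytes (2 of 6, beside 0.782%) and microglia (2 of 5, beside 1.01%). Fkbp5 was also higher at that level in interneurons (0.44 ± 0.21, 1 of 5 members, beside 1.34%) and in the whole punch (0.32 ± 0.12, 1 of 7, beside 0.874%). Tsc22d3 was lower in dentate granule nuclei (-0.47 ± 0.21, 1 of 7 members, beside 1.52% of genes lower at that level), and Cdkn1a was lower in CA3 pyramidal nuclei (1 of 7, beside 2.26%). ControlPP minus NP for Zbtb16 was 0.79 ± 0.20 on the log2 scale in OPC, with an adjusted p of 0.99998. The estimate was 0.69 ± 0.27 in oligodendrocytes, 0.58 ± 0.22 in astrocytes and 0.53 ± 0.24 in microglia, and 0.05 ± 0.15 in dentate granule nuclei. For Fkbp5 it was 0.61 ± 0.21 in oligodendrocytes, 0.51 ± 0.21 in OPC, 0.63 ± 0.30 in astrocytes, 0.38 ± 0.16 in microglia and 0.14 ± 0.07 in dentate granule nuclei. Without the ControlPP mouse 88 the Fkbp5 estimate was 0.35 in astrocytes and 0.19 in microglia. Cdkn1a in CA3 pyramidal nuclei had every ControlPP mouse (0.193 to 1.28 CPM) below every NP mouse (1.30 to 2.72 CPM), 1 of 7 members beside 0.547% of all genes, at a difference of -1.04 ± 0.48.

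StressPP minus NP, which sets both exposures together against neither, shares mice with both other comparisons. EdgeR called 0 genes in each of the 9 main classes, with 330 to 852 genes at an unadjusted p under 0.05, and DESeq2 called 1, in the whole punch. Zbtb16 was -0.53 ± 0.20 in OPC, -0.58 ± 0.26 in oligodendrocytes, -0.41 ± 0.21 in astrocytes and -0.28 ± 0.25 in microglia. Fkbp5 was -0.34 ± 0.21 in oligodendrocytes and -0.37 ± 0.16 in microglia, and Tsc22d3 in astrocytes was -0.35 ± 0.13. At an unadjusted p under 0.05, Zbtb16 was lower in oligodendrocytes (1 of 6 members, beside 3.02% of all genes) and OPC (1 of 4, beside 2.13%). Tsc22d3 was lower at that level in the whole punch (1 of 7, beside 2.75%). Also lower at that level were Fkbp5 in microglia (1 of 5 members) and Tsc22d3 in astrocytes (1 of 6). By unadjusted p in either direction these ranked 265 of 9575 and 90 of 12782 genes, and the share of all genes is not given for these classes.

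In the whole punch the estimates were nearer 0 than in the 4 glial classes, with -0.34 ± 0.22 for Zbtb16 and -0.37 ± 0.13 for Fkbp5 in StressPP minus ControlPP, and neither passed the test. In such sums over all nuclei, fewer nuclei of a type and less RNA per nucleus cannot be told apart.

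Depth and the markers of other cells overlapped between the postpartum groups. Median UMIs per OPC nucleus were 3174 to 4600 in ControlPP and 3149 to 5886 in StressPP mice, and per oligodendrocyte nucleus 1759 to 2616 and 1766.5 to 3577.5. ControlPP glia lay lower in depth than NP glia, with overlapping ranges. NP mice had medians of 4046 to 6931 UMIs in OPC and 2260.5 to 3825 in oligodendrocytes. In astrocytes the medians were 2640 to 3391 in ControlPP and 3170 to 5088 in NP mice, and in microglia 1418 to 2163 and 1925 to 3096. The part of depth in the ControlPP minus NP values was not tested. The 6 endothelial markers, a class rich in Zbtb16, summed to 12.9 to 15.1 CPM in OPC of ControlPP and 5.25 to 20.6 CPM in OPC of StressPP mice, against 8449 CPM in endothelial nuclei. The 6 markers of vascular leptomeningeal cells summed to 0 to 0.794 CPM in OPC of ControlPP and 0 to 2.07 CPM in OPC of StressPP mice. The 8 dentate granule markers summed to 503 to 595 CPM in OPC of ControlPP and 438 to 555 CPM in OPC of StressPP mice, against 2155 CPM in granule nuclei. In astrocytes the same list summed to 778 to 1056 and 739 to 990 CPM. The 8 oligodendrocyte markers in astrocytes had a median of 284 CPM in ControlPP and 521 CPM in StressPP mice, with 172 to 314 and 173 to 914 CPM. Their part in the values of the members was not tested.

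Other genes known to be raised by glucocorticoids were taken from a list of 24, and none passed the adjusted test in a main class. The list was chosen with earlier results of these data known, so nothing is read from its shares, here or below. In oligodendrocytes 21 were tested for StressPP minus ControlPP and 15 had a negative estimate, with a median of -0.29 beside -0.01 over all genes. Per1, a clock gene with a glucocorticoid response element, was 32.4 ± 1.22 CPM (n = 4) in ControlPP and 20.6 ± 6.18 CPM (n = 5) in StressPP oligodendrocytes, a difference of -0.66 ± 0.17 with an unadjusted p of 0.00125 and an adjusted p of 0.9996 in edgeR. Hif3a (-0.94 ± 0.36), Mertk (-0.72 ± 0.29), Arrdc2 (-0.58 ± 0.22) and Bcl6 (-0.44 ± 0.16) were the other genes of the list with a negative estimate at an unadjusted p under 0.05 there. That makes 5 of 21, beside 1.65% of all genes tested in oligodendrocytes.

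In astrocytes 12 of 17 genes tested had a negative estimate, with a median of -0.22 beside 0.01 over all genes, and Hif3a, Mertk and Klf9 (3 of 17, beside 1.39% of all genes) had an unadjusted p under 0.05. In OPC it was 6 of 7, with a median of -0.29, and Mertk (-0.51 ± 0.16) and Nedd9 (-1.13 ± 0.35) had an unadjusted p under 0.05 (2 of 7, beside 1.63% of all genes). Microglia had 5 of 8 with a median of -0.10. In dentate granule nuclei 10 of 19 were negative with a median of -0.06, and Klf9, a zinc finger transcription factor, was 0.22 ± 0.09 there against -0.28 ± 0.12 in astrocytes, neither past the adjusted test. CA1 pyramidal nuclei had 6 of 13 negative (median 0.00), CA3 pyramidal nuclei 7 of 16 (median 0.05), interneurons 4 of 8 (median -0.08) and the whole punch 14 of 23 (median -0.14). At an unadjusted p under 0.05, Mertk (-0.83 ± 0.36) and Klf15 (-0.64 ± 0.30) were lower in interneurons (2 of 8, beside 0.581% of all genes), and Hif3a (-0.73 ± 0.32) and Mertk (-0.49 ± 0.16) in the whole punch (2 of 23, beside 0.279%).

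For ControlPP minus NP the same list had positive medians in oligodendrocytes (0.09, 9 of 21 negative), OPC (0.05, 3 of 7) and astrocytes (0.06, 6 of 17). At an unadjusted p under 0.05, Cebpd was higher in oligodendrocytes (0.93 ± 0.27, 1 of 21, beside 0.716% of all genes), and Mertk in OPC (0.38 ± 0.15, 1 of 7, beside 1.19%) and astrocytes (0.42 ± 0.13, 1 of 17, beside 0.782%). The median was -0.03 in microglia (4 of 8 negative), -0.14 in dentate granule (17 of 19), -0.08 in CA1 pyramidal (8 of 13) and -0.13 in CA3 pyramidal nuclei (11 of 16). It was -0.03 in interneurons (5 of 8) and -0.11 in the whole punch (16 of 23), where Fkbp5 and Zbtb16 both had positive estimates. Per1 was lower at that level in dentate granule nuclei (-0.39 ± 0.16, 1 of 19, beside 1.52%), and Map3k6 (-1.51 ± 0.45) and Cdkn1c (-0.88 ± 0.36) in the whole punch (2 of 23, beside 3.1%). For StressPP minus NP 21 of 23 estimates were negative in the whole punch, with a median of -0.31, and the medians of the 8 classes of nuclei lay between -0.21 and -0.05. Whole punch sums also follow the mix of nuclei, whose part was not tested. Habenula nuclei numbered 1026 over 6 NP mice and 185 over 4 StressPP mice, and striatal-type nuclei 568 over 4 and 1209 over 4. These are sums over mice, and 1 library held 28.2% of all habenula and 1 held 44.7% of all striatal-type nuclei. In astrocytes no gene of the list had an unadjusted p under 0.05 in this comparison. Mertk, Per1, Fam107a, Map3k6, Klf15 and Gjb6 were lower in the whole punch at an unadjusted p under 0.05 (6 of 23, beside 2.75% of all genes), with estimates from -1.29 for Map3k6 to -0.39 for Mertk. Lower at that level were also Mertk, Per1 and Klf15 in oligodendrocytes (3 of 21, beside 3.02%), Nedd9 in OPC (1 of 7, beside 2.13%), Mertk and Per1 in dentate granule nuclei (2 of 19, beside 1.74%), and Per1 and Klf15 in CA1 pyramidal nuclei (2 of 13, beside 1.63%) and in interneurons (2 of 8, beside 2.59%).

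**Figure D4:**
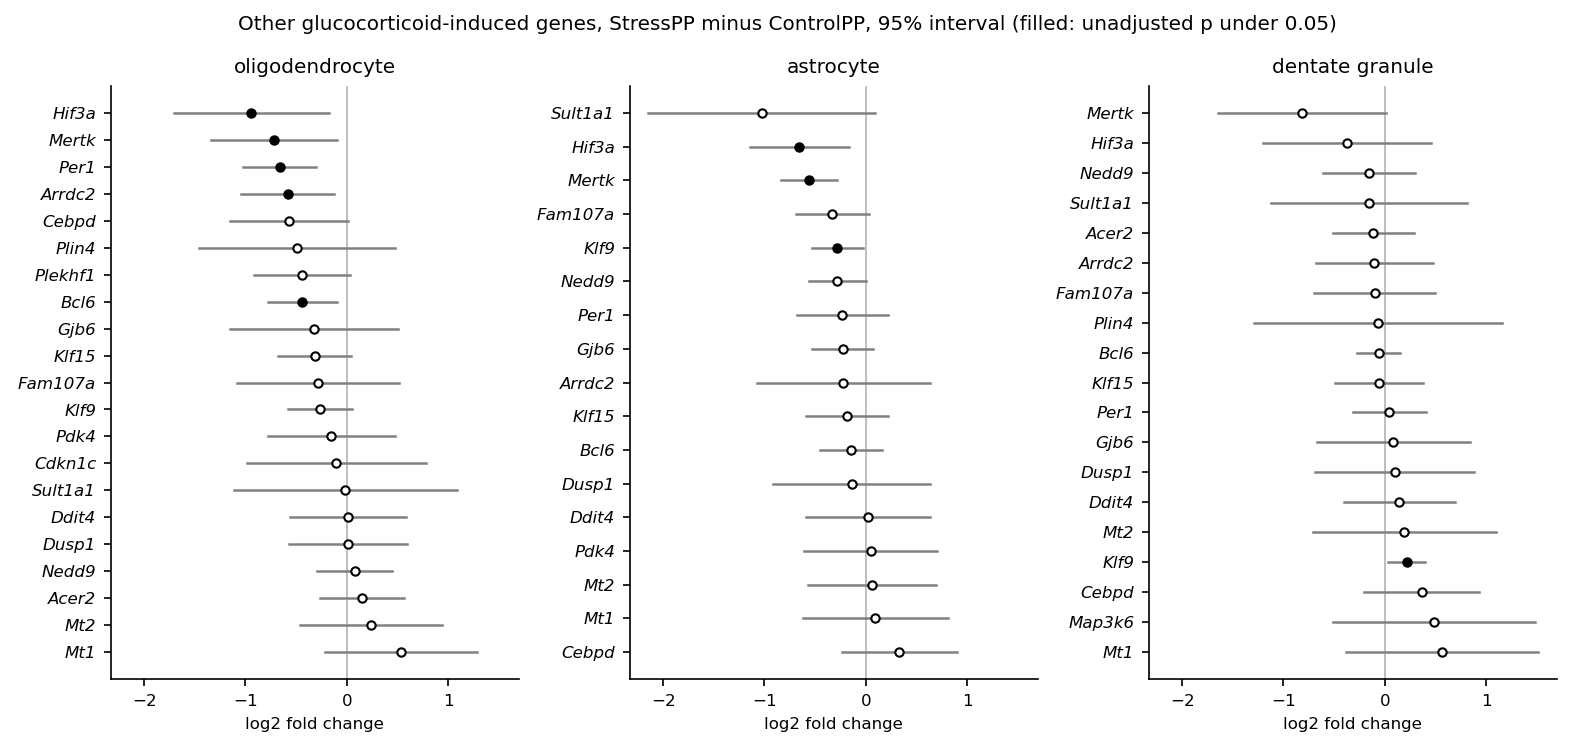
StressPP minus ControlPP of the other glucocorticoid-induced genes in oligodendrocytes, astrocytes and dentate granule nuclei, as log2 fold change with its 95% interval. Filled points have an unadjusted p under 0.05 and no gene has an adjusted p under 0.05. In oligodendrocytes 15 of 21 estimates lie below 0.

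The 3 remaining lists, chosen with the same results known, had no gene past the adjusted test in a main class, and nothing is read from their shares. For the 13 receptors, enzymes and chaperones, the median of StressPP minus ControlPP was 0.03 in oligodendrocytes, 0.00 in OPC, 0.06 in astrocytes, 0.10 in microglia and 0.09 in dentate granule nuclei. At an unadjusted p under 0.05, Hsp90aa1 was higher in StressPP than in ControlPP astrocytes (1 of 12 genes tested). Hsd11b1 was higher at that level in dentate granule nuclei of ControlPP than of NP mice (1 of 12). The shares of all genes are not given for these 2 comparisons. The 10 daily clock genes bear on the unstated time of collection, since glucocorticoids follow the day. Their median of StressPP minus ControlPP was 0.01 in oligodendrocytes, -0.12 in OPC, 0.03 in astrocytes and 0.07 in dentate granule nuclei. At an unadjusted p under 0.05, Arntl was lower in oligodendrocytes (1 of 10 genes, beside 1.65% of all genes) and Npas2 in OPC (1 of 9, beside 1.63%) and astrocytes (1 of 10, beside 1.39%). For ControlPP minus NP the clock genes had a negative median in each main class. It was -0.25 in CA3 pyramidal nuclei, with Per2 (-0.49 ± 0.13), Tef (-0.43 ± 0.14) and Dbp (-0.65 ± 0.26) lower at an unadjusted p under 0.05 (3 of 10, beside 2.26% of all genes). It was -0.22 in CA1 pyramidal nuclei, with Per2 lower at that level (1 of 10, beside 1.87%), and -0.13 in dentate granule nuclei, with Per2 and Nr1d1 lower (2 of 10, beside 1.52%). In the glia it was -0.09 in oligodendrocytes, -0.07 in OPC, -0.15 in astrocytes and -0.12 in microglia, with no clock gene at an unadjusted p under 0.05, and in the whole punch -0.16, with Per2 lower (1 of 10, beside 3.1%). These values stand beside the higher Fkbp5 and Zbtb16 estimates of the ControlPP mice. For StressPP minus NP, where the Zbtb16 estimates in the glia were negative, the clock medians were also mostly negative. They were -0.19 in CA3 pyramidal nuclei, with Tef, Bhlhe41 and Per2 lower at an unadjusted p under 0.05 (3 of 10, share of all genes not given). They were -0.13 in CA1 pyramidal nuclei, with Ciart and Per2 lower (2 of 10, beside 1.63%), and -0.06 in dentate granule nuclei, with Per2 lower (1 of 10, beside 1.74%). In the glia they were -0.07 in oligodendrocytes, -0.11 in OPC, -0.09 in astrocytes and 0.00 in microglia. Bhlhe41 and Arntl were lower at that level in OPC (2 of 9, beside 2.13%), and Per2 in the whole punch (1 of 10, beside 2.75%). The 10 immediate early genes follow recent activity. For StressPP minus ControlPP their median was 0.05 over the 9 tested in dentate granule nuclei and -0.08 over the 4 tested in oligodendrocytes. For StressPP minus NP it was -0.06 in dentate granule nuclei, with Nr4a1 lower at an unadjusted p under 0.05 (1 of 9, beside 1.74% of all genes). It was -0.35 in CA1 pyramidal (8 of 8 negative), -0.39 in CA3 pyramidal (7 of 7) and 0.09 in oligodendrocyte nuclei (1 of 4). The part of collection time in the values of the members, in any of these comparisons, was not tested.

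Across the 15 mice, the levels of Fkbp5 and Zbtb16 were correlated in oligodendrocytes when groups were pooled. Of 24 correlations computed between Fkbp5 and another member in 4 classes, this was the one past an adjusted p of 0.05 (Pearson r = 0.856, permutation p = 8e-05, adjusted p = 0.00192). Spearman's rho was 0.732 with a permutation p of 0.00274 and an adjusted p of 0.0658. That permutation exchanges mice across groups, and both genes were listed with their group differences known, so shared group means alone can give a small p. With group means removed and mice permuted within their group, an alternative chosen after seeing the data, r was 0.68 (permutation p = 0.0101), and the adjusted p of 0.241 over the 24 correlations did not pass the test. Without the 2 mice farthest from the median of Fkbp5, the pooled r was 0.805. Within batch 2 it was 0.808 and within batch 3 0.964 (6 mice each). The levels of both genes in a mouse share that mouse's library and total count.

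The same pair in astrocytes gave r = 0.609 with a permutation p of 0.0162 and an adjusted p of 0.13, rho = 0.571 (permutation p = 0.0284, adjusted p = 0.3), and r = 0.349 without the ControlPP mice 87 and 88, so that relation rests on those mice. Within batch 2 it was 0.439 and within batch 3 0.972, and with group means removed 0.377 (within-group permutation p = 0.178, adjusted p = 0.588). In dentate granule nuclei Fkbp5 and Zbtb16 gave r = -0.162 (permutation p = 0.559), with 0.308 within batch 2, 0.871 within batch 3 and -0.578 with group means removed (within-group permutation p = 0.0417, adjusted p = 0.368). In CA1 pyramidal nuclei r was 0.23 (permutation p = 0.41), and 0.21 with group means removed. Fkbp5 and Sgk1 gave r = 0.566 in oligodendrocytes and -0.614 in dentate granule nuclei, with adjusted p-values of 0.161 and 0.13 by permutation, and the first was 0.174 without the 2 mice farthest from the median.

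**Figure D5:**
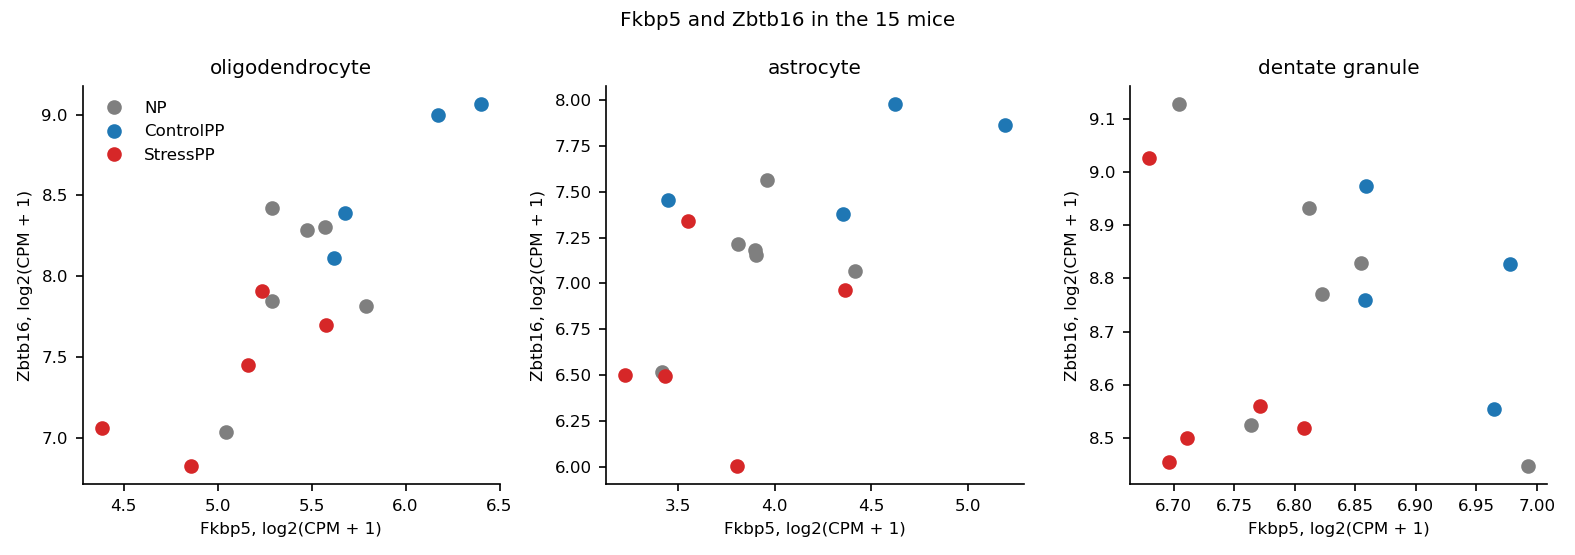
Fkbp5 against Zbtb16, each as log2(CPM + 1), with 1 point per mouse in oligodendrocytes, astrocytes and dentate granule nuclei, coloured grey for NP, blue for ControlPP and red for StressPP. In oligodendrocytes r is 0.856 over all 15 mice and 0.68 with group means removed, and in dentate granule nuclei r is -0.162 over all mice.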

How the data were processed

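Nuclei were isolated on a sucrose gradient and sequenced with 10x 3′ v3.1 chemistry. The authors aligned reads to mm10-2020-A and deposited filtered UMI counts per gene and barcode (raw counts, with no normalization). The submitters' notes name Cell Ranger 7.1.0, while the file headers name 7.0.0. The ambient RNA correction, doublet removal and SCTransform of the study's methods are not in these counts.

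Barcodes were dropped below 200 genes or above 5% of UMIs from mitochondrial genes. Scrublet scores removed 0.8% of barcodes per 1000 as doublets. Nuclei were clustered in scanpy 1.11.5 (2000 variable genes without the members and lists, 30 components, 15 neighbours, Leiden resolution 1). Clusters were named from fixed markers: at least 3 detected at 5 CPM and 2-fold over the median cluster, with a mean log2 fold of at least 2.5. No other class could have more markers among the 10 leading genes than the class named. Excitatory classes needed Slc17a7 of at least 50 CPM. GABAergic classes needed glutamate decarboxylase and transporter genes of at least 100 CPM. These thresholds were set after clusters were seen, and 3 of 34 clusters stayed unnamed.

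Counts were summed per mouse and class (at least 10 nuclei, 3 mice per group). The quasi-likelihood test of edgeR 4.0.16 (R 4.3.3) was run on the 3 groups in a single fit, after filterByExpr and TMM scaling, with Benjamini-Hochberg adjustment per class and contrast. Correlations used 100000 permutations, two-sided. A mean ± SD is over mice, and each log2 value is from edgeR, apart from the within-batch ratios and the within-mouse values. Within-batch log2 ratios compare group means of CPM after a pseudocount of 1 is added to each. Within-mouse values are differences between group means of log2 levels. The SE of an edgeR value was taken as the absolute log2 value divided by the square root of the F statistic of the test. Per-gene intervals cover the spread between mice, and limits for a count of 0 cover counting error only (3 counts per group).

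The members and gene lists were chosen with earlier results of these data known. Genes named are all members in the main classes, list genes past an adjusted p of 0.05, Nr3c1, Nr3c2, Per1 and Klf9, and the 3 genes most like each member at 5 CPM or more. Values of other classes, and of list genes at an unadjusted p under 0.05, were chosen after they were seen. Alternatives were DESeq2 1.42.0 (the study's tool), RLE scaling, no filter, batch as a term, 30 nuclei per mouse, a doubled doublet share, Leiden 0.5, leaving out each mouse, means of CPM per nucleus, and a pseudocount of 0.1 in place of 1.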

Additional observations from a re-analysis of the deposited data

Results flagged for a closer look

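In the 144 sets of 4 to 6 mice (member, class and group), 4 held a mouse far from the others by Dixon's test at the 95% level, which chance gives in about 1 of 20 sets. Zbtb16 in CA1 pyramidal nuclei of ControlPP mouse 87 was 491 CPM, with the next mouse at 395 CPM. Zbtb16 in dentate granule nuclei of StressPP mouse 70, the batch 1 mouse of its group, was 520 CPM, with the next at 376 CPM. Sgk1 was 261 CPM in CA3 pyramidal nuclei of StressPP mouse 75, below the next at 311 CPM, and 13.9 CPM in astrocytes of NP mouse 37, below the next at 22.7 CPM. None of these 4 is in a glial class of Zbtb16 or Fkbp5.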

How the results depend on the processing

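The main count of member calls over the 9 main classes was 0 for ControlPP minus NP, 1 for StressPP minus ControlPP and 0 for StressPP minus NP. For StressPP minus ControlPP it was 4 with DESeq2 (Zbtb16 in OPC, oligodendrocytes and astrocytes, Fkbp5 in oligodendrocytes) and 0 with the doublet share doubled or, chosen after seeing the data, with p-values adjusted over the 9 classes together. For ControlPP minus NP it was 1 without a filter on low counts (Zbtb16 in OPC, adjusted p = 0.00328). The number of all genes called in that fit is not given here, so this call has no background beside it. Leaving out 1 mouse at a time gave 0 to 1 calls for StressPP minus ControlPP and 0 for the other comparisons. Zbtb16 and Fkbp5 in the 4 glial classes kept their direction in StressPP minus ControlPP and ControlPP minus NP under all 22 alternatives each. Of 56 class levels, 2 moved by more than the SD between mice when CPM was averaged per nucleus. No paired analysis was possible because the labels pair no mouse of one group with a mouse of another. Batch, which groups share, was fitted as a term and gave 0, 1 and 0 calls. Doubts that remain are the 4 ControlPP mice, all outside batch 1, the low counts of Nfkbia and Cdkn1a, and classes named here rather than by the study.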
